A study of Mus musculus with 18 samples.

Results

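The response of naive synovial fibroblasts to fibroblast growth factor 2 (FGF2) was read from 3 libraries of cells given FGF2 at 10 ng/mL for 3 days and 3 libraries of unstimulated cells, which are 6 of the 18 libraries sequenced. All 6 came from fibroblasts sorted from the paws of wild-type mice that had received no arthritogenic serum. The other 12 libraries held naive cells given osteopontin (OPN, 50 ng/mL) with or without FGF2 and cells of mice with serum-transfer arthritis with or without OPN, again 3 libraries a group. Every gene that passed a filter on low counts was a member, which gave 15072 of 32285 gene identifiers. The sources used here do not give the age or sex of the mice, the gates of the sort or the time unstimulated cells spent in culture. If times in culture differed between the groups, their effect and that of FGF2 cannot be told apart. In all 6 libraries 4 Y-linked genes had 0 counts and Xist had at least 9202, the pattern of female cells. The sources do not say whether the 3 replicates of a group are separate mice or separate cultures. P-values therefore measure only the spread between these samples.

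FGF2 binds FGF receptor tyrosine kinases together with heparan sulphate and drives the Ras, Raf, MEK and ERK kinases, which in turn switch on ETS and AP-1 transcription factors. The same signal induces its own brakes, among them Sprouty and Spred proteins and phosphatases that strip ERK of its phosphate. In fibroblasts FGF2 is known as a mitogen that opposes the contractile, collagen-producing state that TGF-beta promotes, and synovial fibroblasts are known for making both the matrix and the proteases of the joint.

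The FGF2 libraries held 28784279 to 32160896 counts and the unstimulated libraries 29232126 to 32385299. Levels are CPM (counts scaled to a common library total with TMM factors) unless TPM, which also corrects for gene length, is named. Values by library stand in the order of replicates 1, 2 and 3, an order that the sources do not explain. Fold changes are log2 values of FGF2 over unstimulated cells ± SE from edgeR's quasi-likelihood test over all 18 libraries, and a gene is said to rise or fall where its Benjamini-Hochberg adjusted p over 15072 genes lay below 0.05. FGF2 replicate 2 stood farther from the mean of its group than any other of the 18 libraries: its log2 CPM deviated by 0.277 (root mean square over genes), against 0.196 to 0.242 in the rest. It was the highest of the FGF2 libraries in 56.3% of 1422 genes that rose at least 2-fold and the lowest in 43.2% of 1501 that fell at least 2-fold and had no tied values. Calls of named genes that depended on it are given with and without it. In bulk RNA, fewer cells of a kind and less RNA per cell cannot be told apart.

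Most of the transcriptome differed between FGF2 and unstimulated cells. Of 15072 genes 8609 (57.1%) passed the test, 4379 (29.1%) higher and 4230 (28.1%) lower, and the median log2 fold change over all of them was 0.0099. Many of these changes were small: 65.2% of the called genes moved by less than 2-fold, which left 1422 genes (9.43%) at least 2-fold higher and 1578 (10.5%) at least 2-fold lower. At least 8-fold changes were as common upward as downward, with 345 genes each. All 3 libraries of 1 group lay above all 3 of the other in 61.3% of the genes, with FGF2 above in 31.4% and below in 29.9%. The shares 29.1% and 28.1% are the background against which each gene list below is to be read. The common biological coefficient of variation between replicates, 1 estimate shared by all genes and 18 libraries, was 7.99%. Single genes could vary more.

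**Figure D1:**
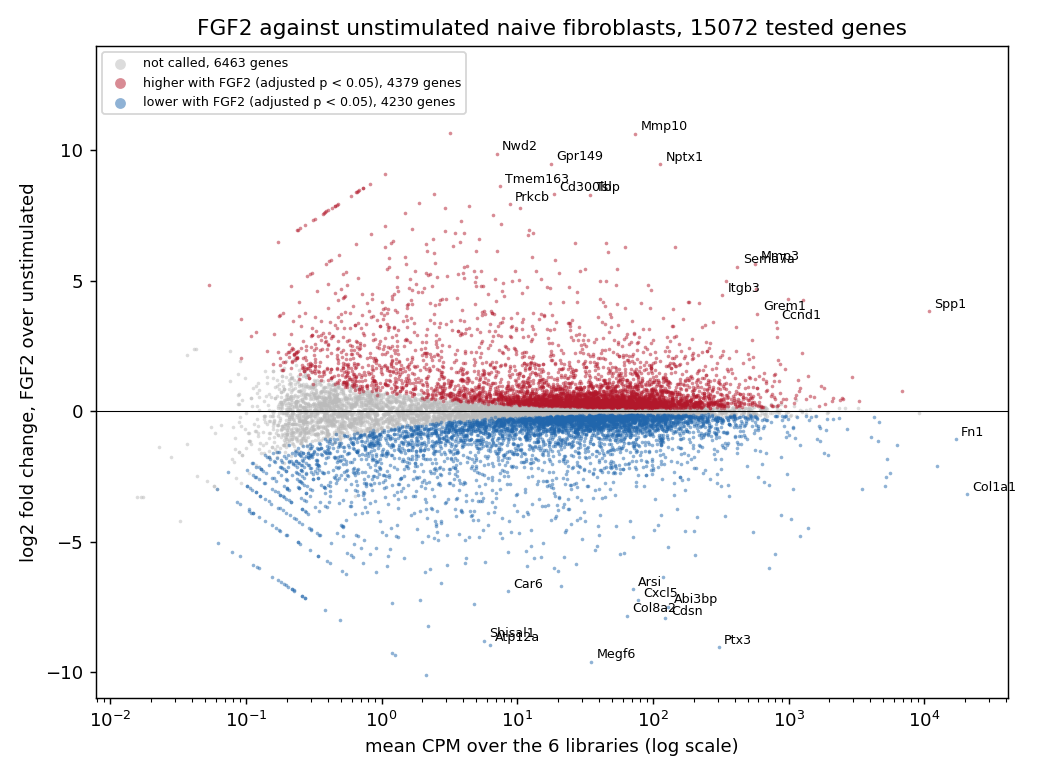
Log2 fold change of FGF2 over unstimulated cells (vertical axis) against the mean CPM over the 6 libraries (horizontal axis, log scale) for 15072 genes. Red points are the 4379 genes that rose and blue points the 4230 that fell, with Mmp10 at 10.62 and Megf6 at -9.61 leading the 15 largest rises and the 15 largest falls among genes with a mean of at least 5 CPM.

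The make-up of the most abundant transcripts turned over. On the scale of TPM Spp1, the gene of OPN itself, led the FGF2 libraries at a mean of 46181 TPM, against 3347 TPM in unstimulated cells. The type I collagen gene Col1a1, which led the unstimulated libraries, stood at 2350.4 TPM with FGF2 and 21858 TPM without. The 10 genes of highest TPM with FGF2 were Spp1, the elongation factor Eef1a1, S100a4, the ferritin chain Ftl1, the intermediate filament gene Vim, mt-Co1, Rplp1, Lgals1, Eef2 and Rps2. In unstimulated cells they were Col1a1, Eef1a1, Sparc, Rplp1, Fn1, the collagen crosslinker Lox, mt-Co1, Col1a2, Ftl1 and Thbs1. Matrix genes thus held 6 of the 10 highest places without FGF2, if Lox is counted with Col1a1, Col1a2, Fn1, Sparc and Thbs1, and none of these 6 was among the 10 with FGF2. Several of these transcripts, such as Eef1a1, Rplp1 and Rps2, have processed copies in the genome, so the split of their reads is uncertain.

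The pathway's own inhibitors rose as a group. Of 15 tested feedback inhibitors of FGF and ERK signalling 13 rose, 1 fell and 1 was not called, with a median log2 fold change of 2.34, and 11 of the 13 rose at least 2-fold. Spry4, a Sprouty protein that blocks Ras activation, stood at 73.1, 91.2 and 66.96 CPM in the FGF2 libraries, against 3.98, 3.44 and 4.13 CPM in the unstimulated libraries. The groups were far apart and the highest FGF2 value was that of replicate 2. Its log2 fold change was 4.32 ± 0.15 (adjusted p = 5.76e-16). Dusp6, a phosphatase specific for ERK, had 237, 293 and 221 CPM in the FGF2 libraries, against 25.6, 24.8 and 28.1 CPM in the unstimulated libraries, again with no overlap (log2 fold change 3.26 ± 0.16). The ERK phosphatases Dusp4 and Dusp5 rose by 4.12 and 3.30 on the log2 scale, the receptor kinase inhibitors Errfi1 and Lrig1 by 3.42 and 2.85, and Spry2, Spred1, Spred2 and Spred3 by 2.58, 2.22, 1.77 and 2.02. Spry1 went the other way from its relatives. It had 5.10, 5.88 and 4.88 CPM in the FGF2 libraries, against 22.6, 25.2 and 27.7 CPM in the unstimulated libraries, so every FGF2 library lay below every unstimulated library, a log2 fold change of -2.25 ± 0.13 (adjusted p = 1.36e-12).

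Among the ligands of the family, the gene of FGF2 itself rose. Fgf2 stood at 433, 393 and 446 CPM in the FGF2 libraries, against 72.3, 62.9 and 67.5 CPM in the unstimulated libraries, with every FGF2 library far above every unstimulated library (log2 fold change 2.65 ± 0.19). Fgf10, a ligand of FGFR2b that mesenchyme makes, averaged 13.1 ± 1.57 CPM with FGF2 and 1.36 ± 0.222 CPM without (SD, n = 3 each), while Fgf7, which uses the same receptor, fell to 71.6 CPM with FGF2, against 164 CPM without. Fgf21, a stress-induced hormone, had 0 counts in all 3 FGF2 libraries and 0.745 CPM over the unstimulated libraries, so it was at least 22.6-fold lower, taking 3 counts over the group as the floor. Of 10 tested ligands 4 rose and 4 fell. Of 16 receptors, coreceptors and adaptors 6 rose and 7 fell. The main fibroblast receptor Fgfr1 rose slightly, to 485 CPM against 383 CPM. Fgfr2 had 8.07, 7.47 and 9.03 CPM in the FGF2 libraries, against 69.3, 64.4 and 65.00 CPM in the unstimulated libraries, with no overlap, and fell by 3.01 on the log2 scale.

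Downstream transcription factors split by family. The ETS factors of the PEA3 group, direct ERK targets, all rose: Etv4 had 114, 120.3 and 119 CPM in the FGF2 libraries, against 6.66, 7.83 and 8.13 CPM in the unstimulated libraries, a log2 fold change of 3.97 ± 0.19, and Etv1 and Etv5 rose by 4.17 and 1.97. Of 14 tested ETS genes 7 rose and 3 fell. Outside the PEA3 group Elk3 rose by 1.13, and Erg, better known from endothelium, fell by 3.72. Among AP-1 subunits 3 of 10 rose and 5 fell. Fosl1, the Fos relative that lasts longest after a mitogen, had 34.6, 28.6 and 36.2 CPM in the FGF2 libraries, against 9.34, 10.98 and 10.98 CPM in the unstimulated libraries, and each FGF2 library was above each unstimulated library. Fos itself had 118, 91.9 and 124 CPM in the FGF2 libraries, against 326, 306 and 315 CPM in the unstimulated libraries, and here the FGF2 libraries were the lower ones (log2 fold change -1.51 ± 0.09). Fosl2 fell by 1.64 and Fosb by 0.90, while Jun rose by 0.79. The early growth response genes divided likewise, with Egr3 at 74.8 CPM with FGF2 against 10.8 CPM and Egr1 at 206 CPM against 409 CPM, and over the 15 tested genes of the Egr, Nr4a and Ier group 4 rose and 7 fell. All of these values are from day 3, so early peaks of such genes were not measured.

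Most genes for OPN and its receptors rose. Of 10 genes for OPN and its receptors 8 rose and 2 fell, with a median log2 fold change of 1.55. Spp1 stood at 16579.9, 28019.8 and 16074 CPM in the FGF2 libraries, against 1423, 1470 and 1373 CPM in the unstimulated libraries. Replicate 2 was again the highest, and the groups did not overlap (log2 fold change 3.83 ± 0.16). Itgb3, the chain that with Itgav forms the vitronectin receptor, had the smallest p of all genes. It had 620, 632 and 616 CPM in the FGF2 libraries, against 29.2, 28.03 and 28.5 CPM in the unstimulated libraries, a log2 fold change of 4.45 ± 0.08 (adjusted p = 1.07e-20), and the 3 FGF2 libraries lay close together. The OPN and hyaluronan receptor Cd44 rose to 822 CPM against 204 CPM. Itga5, Itgav and Itgb1 rose by 1.08, 0.97 and 0.48 on the log2 scale, and Itgb5 and Itga9 fell by 0.95 and 1.22.

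Other integrins changed as much, in both directions. The laminin-binding chain Itga6 had 664, 701 and 662 CPM in the FGF2 libraries, against 21.6, 20.3 and 21.6 CPM in the unstimulated libraries, and the collagen-binding chain Itga2 stood at 122 ± 10.6 CPM with FGF2 and 1.55 ± 0.283 CPM without, log2 fold changes of 4.995 ± 0.19 and 6.29 ± 0.12. The other collagen-binding chain that fibroblasts use, Itga11, had 9.23, 6.38 and 10.8 CPM in the FGF2 libraries, against 410.4, 423 and 377 CPM in the unstimulated libraries. Its FGF2 libraries were all far below the unstimulated ones, a log2 fold change of -5.51 ± 0.19, and Itga1 fell by 1.92. In all, 6 of the 14 tested integrin and integrin-adaptor genes outside the OPN receptors rose and 4 fell.

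**Figure D2:**
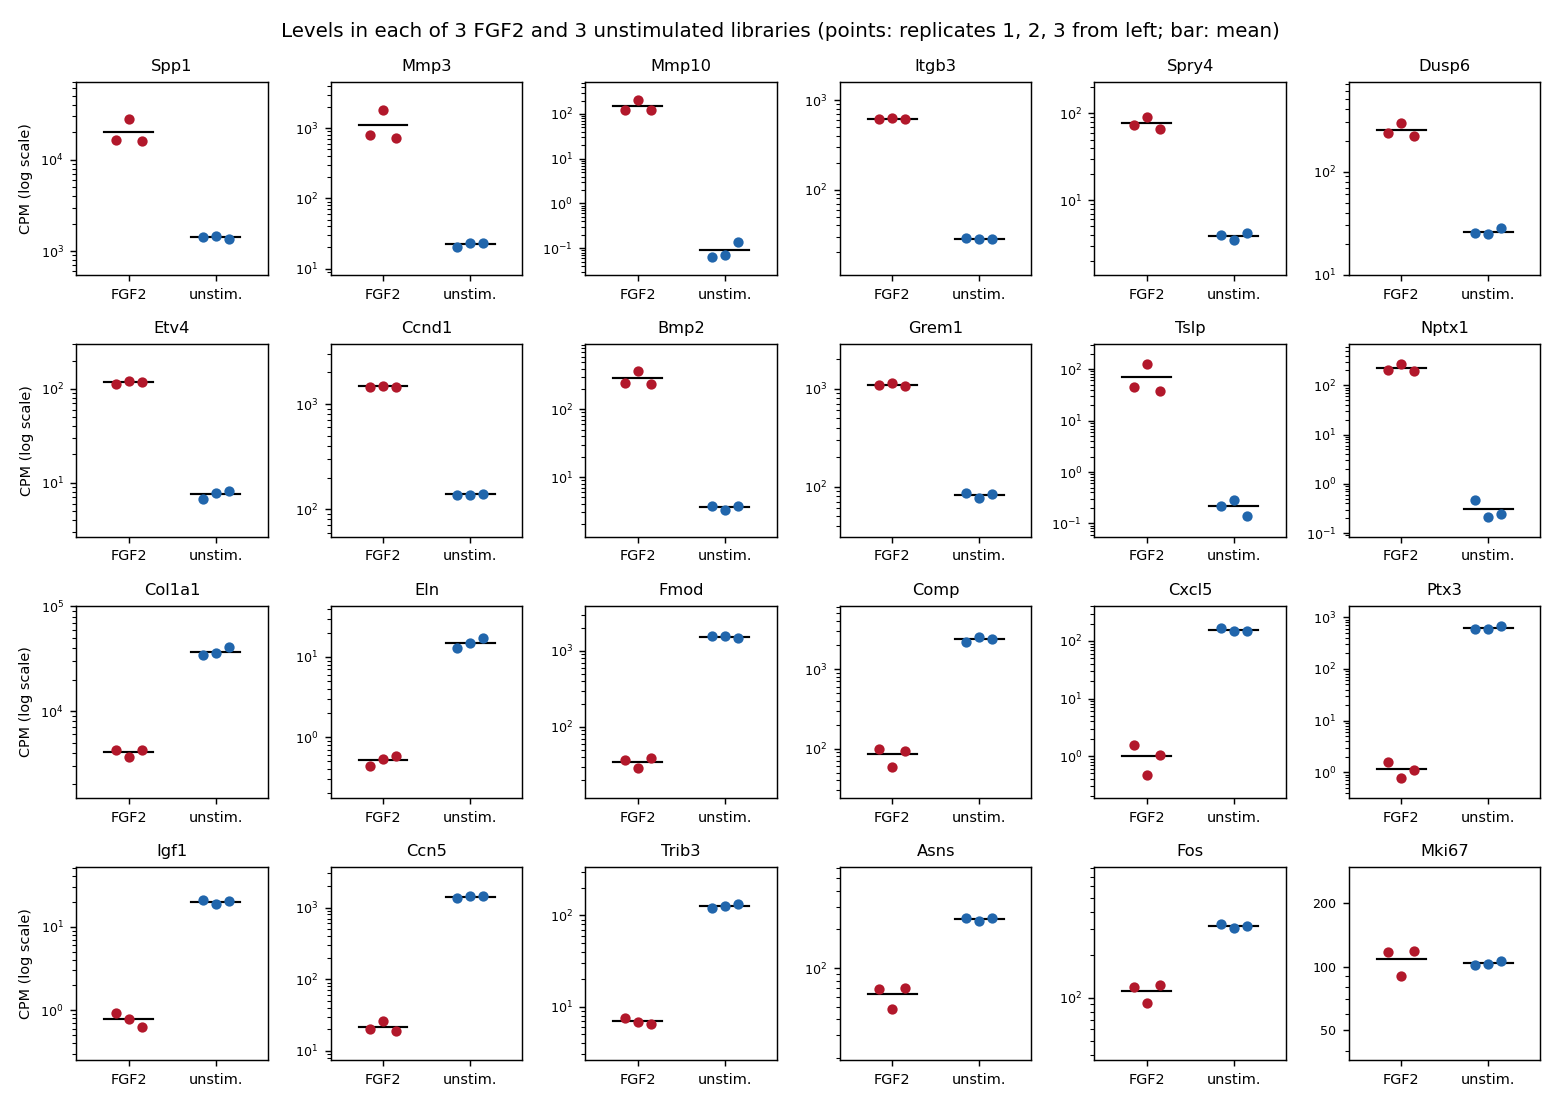
CPM (log scale) of 24 genes in each of the 3 FGF2 libraries (red, left) and 3 unstimulated libraries (blue, right), with the group mean as a bar. The groups do not overlap in 23 of the panels, and in that of Mki67, a marker of cycling cells, FGF2 replicate 2 lies below all unstimulated libraries.

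Proteases that cut matrix split between a few steep rises and many modest falls. Of 14 matrix metalloproteinase genes tested, 4 rose and 7 fell, with a median log2 fold change of -0.04. Without FGF2 replicate 2, and likewise without unstimulated replicate 3, the rises numbered 2. The rises were led by the stromelysins, broad proteases that also activate other metalloproteinases. Mmp10 had 121, 204 and 119.9 CPM in the FGF2 libraries, against 0.0631, 0.0709 and 0.139 CPM in the unstimulated libraries, and Mmp3 had 808, 1795 and 735 CPM in the FGF2 libraries, against 20.3, 22.9 and 23.2 CPM in the unstimulated libraries. In both genes replicate 2 was the highest FGF2 library and the groups were far apart, with log2 fold changes of 10.62 ± 0.35 and 5.65 ± 0.34. Mmp13, a collagenase, had 346, 464 and 362 CPM with FGF2 and 211, 199 and 215 CPM without (log2 fold change 0.90 ± 0.32, adjusted p = 0.0266). Its groups did not overlap, but the call was lost without FGF2 replicate 2 (adjusted p = 0.088) and without unstimulated replicate 1, 2 or 3 (0.0628, 0.0728 and 0.0575). The gelatinase Mmp2 fell by 0.56 and Mmp17 by 1.04 on the log2 scale. Mmp14, a membrane-bound protease that activates Mmp2, had 789.8, 976 and 777 CPM in the FGF2 libraries, against 930, 975 and 956 CPM in the unstimulated libraries, and its groups overlapped (log2 fold change -0.17 ± 0.07, adjusted p = 0.0389). That call was lost without FGF2 replicate 1 (adjusted p = 0.194) or 3 (0.212) and without unstimulated replicate 2 or 3 (0.0785 for the last). Of 16 Timp and ADAMTS genes 3 rose and 8 fell. Adamts5, an aggrecan-cutting enzyme of cartilage, had 25.6, 21.5 and 26.1 CPM in the FGF2 libraries, against 427, 385 and 392 CPM in the unstimulated libraries, with no overlap, and fell by 4.04, and the inhibitor Timp3 fell by 2.11.

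Mmp13, Mmp3 and Mmp10 lie in the same cluster on chromosome 9 (GRCm38), at chr9:7272514-7283331, chr9:7445822-7455975 and chr9:7502352-7510240 as the deposited table gives them. Between them lie Mmp12, which had 12, 44 and 9 counts with FGF2 and 1, 0 and 1 without and did not pass the filter, and Mmp1b. Mmp1b had 67, 86 and 71 counts with FGF2 and 0, 1 and 1 without, a ratio of 113 with a counting interval of 30.8 to 935. Its span overlaps that of Mmp12 on the opposite strand, so their reads may not be fully separate. Mmp13, Mmp3 and Mmp10 each hold an AP-1 motif in their promoter, and their promoters are shown because the genes are neighbours with very different fold changes. The sequences are RefSeq's for GRCm38.p6 and run from 250 bases before to 50 bases after the start site on the plus strand, with TGAGTCA, read on either strand, in capitals. They lie at chr9:7502092-7502391 (Mmp10), chr9:7445572-7445871 (Mmp3) and chr9:7272264-7272563 (Mmp13), and the motif begins 63, 46 and 35 bases before the start site.

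Mmp10: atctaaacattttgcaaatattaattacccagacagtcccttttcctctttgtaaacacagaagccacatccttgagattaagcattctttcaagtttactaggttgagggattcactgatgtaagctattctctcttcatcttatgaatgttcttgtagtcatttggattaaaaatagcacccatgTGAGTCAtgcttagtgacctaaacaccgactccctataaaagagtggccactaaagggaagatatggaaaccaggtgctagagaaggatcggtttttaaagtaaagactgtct
Mmp3: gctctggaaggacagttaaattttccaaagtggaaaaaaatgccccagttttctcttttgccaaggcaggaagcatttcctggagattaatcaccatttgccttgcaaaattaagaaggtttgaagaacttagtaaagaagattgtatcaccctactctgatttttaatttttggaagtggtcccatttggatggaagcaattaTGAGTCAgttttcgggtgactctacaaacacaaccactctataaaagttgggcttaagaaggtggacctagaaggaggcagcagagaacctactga
Mmp13: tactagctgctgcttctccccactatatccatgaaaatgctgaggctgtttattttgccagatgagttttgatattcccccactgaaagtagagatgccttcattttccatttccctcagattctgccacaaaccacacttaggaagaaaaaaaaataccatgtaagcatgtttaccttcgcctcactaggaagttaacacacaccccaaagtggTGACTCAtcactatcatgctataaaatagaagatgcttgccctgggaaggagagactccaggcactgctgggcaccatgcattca

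The motif occurred in the promoters of 5.95% of all 27025 genes in that table and in 4.89% of the 11388 tested genes matched to it. It was found in 108 of 1008 matched genes that rose at least 2-fold (10.7%) and in 63 of 1106 that fell at least 2-fold (5.70%). Among the 9 metalloproteinase genes with a promoter in the table these 3 held it. A match of letters does not show that a factor binds there, and none of these shares was tested.

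Genes of plasmin formation and its control changed in both directions. Plaur, the urokinase receptor, had 130.4, 113 and 139 CPM in the FGF2 libraries, against 22.1, 26.9 and 26.9 CPM in the unstimulated libraries, and its ligand Plau rose to 391 CPM against 171 CPM. Serpinb2, an inhibitor of urokinase, stood at 52.5 ± 18.2 CPM with FGF2 and 0.598 ± 0.154 CPM without. Of 7 genes in this group 4 rose and 2 fell. On the coagulation side tissue factor, F3, had 4.53, 5.19 and 4.79 CPM in the FGF2 libraries, against 74.99, 78.7 and 74.7 CPM in the unstimulated libraries, so all FGF2 libraries were lower, whereas thrombomodulin, Thbd, which restrains thrombin, had 434, 491 and 437 CPM in the FGF2 libraries, against 71.3, 74.7 and 75.8 CPM in the unstimulated libraries, all higher. Both were among the 10 genes of smallest p.

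Collagen genes fell. Of 24 collagen chains 15 fell, 5 rose and 4 were not called, with a median log2 fold change of -1.71. Col1a1 had 4255, 3686 and 4259.9 CPM in the FGF2 libraries, against 34544, 35623 and 40747 CPM in the unstimulated libraries, with no overlap (log2 fold change -3.18 ± 0.12). Col8a2, the collagen chain with the largest fall, had 0.367, 0.297 and 0.969 CPM in the FGF2 libraries, against 130.3, 114 and 142 CPM in the unstimulated libraries, with no overlap (log2 fold change -7.84 ± 0.24, and -8.58 without FGF2 replicate 3). The partner chain Col1a2 fell by 2.11, the fibril-starting chains Col5a1 and Col5a2 by 2.97 and 2.36, the fibril-associated Col12a1 and Col14a1 by 4.46 and 3.67, and Col11a1 by 2.87 on the log2 scale. Col10a1, otherwise a marker of hypertrophic cartilage, was an exception. It had 165, 197 and 172 CPM in the FGF2 libraries, against 13.4, 11.02 and 9.94 CPM in the unstimulated libraries, every FGF2 library above every unstimulated one, and rose by 3.96. Col6a3 also rose, by 0.90, while its partner chains Col6a1 and Col6a2 fell by 1.75 and 2.51. The basement membrane chain Col4a1 rose by 0.46.

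Genes that process collagen fell almost without exception: 15 of 17 fell and 2 rose. They included the collagen chaperone Serpinh1 (939 CPM with FGF2 and 2965 CPM without), the crosslinking enzyme Lox (1233 and 9038 CPM in the same order) and the prolyl hydroxylase subunit P4ha2, which fell by 2.40 on the log2 scale. The exceptions were Loxl3 and Pcolce2, at log2 fold changes of 1.37 ± 0.10 and 1.38 ± 0.12. Of 23 small leucine-rich proteoglycan and elastic fibre genes 18 fell and 2 rose, with a median of -1.61. Fmod, a regulator of collagen fibril width, had 36.4, 28.7 and 38.6 CPM in the FGF2 libraries, against 1585, 1575 and 1484 CPM in the unstimulated libraries, and Eln, elastin, had 0.433, 0.529 and 0.575 CPM in the FGF2 libraries, against 12.8, 14.8 and 17.4 CPM in the unstimulated libraries. Neither overlapped, and they fell by 5.48 and 4.85. Prelp, Aspn and Ogn fell by 5.21, 5.43 and 4.37. Efemp1 rose by 2.31, and decorin and lumican, Dcn and Lum, were not called at log2 fold changes of 0.64 ± 0.39 and -0.41 ± 0.47. Without FGF2 replicate 2 Lum was lower, at -1.48 (adjusted p = 0.000709).

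Adhesive glycoproteins followed the collagens for the most part, with 14 of 20 lower and 5 higher. Comp, a cartilage and tendon glycoprotein, averaged 84.9 ± 22.1 CPM with FGF2 and 2362 ± 146 CPM without, and Thbs4, Postn, Thbs1 and Fn1 fell by 4.12, 2.72, 2.51 and 1.07 on the log2 scale. Tnxb, Nid1, Tgfbi, Tnc and Lamb1 rose, by 2.89, 1.42, 1.02, 0.76 and 0.45. The enzymes that make hyaluronan, the polymer of synovial fluid, moved apart: Has1 rose to 19.5 CPM against 2.68 CPM and Has3 to 9.55 CPM against 0.340 CPM, while Has2 fell to 30.1 CPM against 48.1 CPM. Cemip, which breaks hyaluronan down, fell by 2.81. Contractile and TGF-beta target genes numbered 13 lower and 2 higher of 22. Acta2, smooth muscle actin, stood at 249 ± 103 CPM with FGF2 and 1024 ± 77.8 CPM without, Cnn1 fell by 2.57 and the ligand Tgfb2 by 3.40, while Tgfb1 rose by 1.13. Tagln averaged 1.30 ± 0.768 CPM with FGF2 and 2.44 ± 0.936 CPM without and was not called, but it was lower without FGF2 replicate 3 (log2 fold change -1.25, adjusted p = 0.0496) and without unstimulated replicate 1 (-1.17, 0.0345).

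Secreted growth factors rose more often than they fell, 17 against 11 of 29, with a median log2 fold change of 0.94. Bmp2, a bone morphogenetic protein, had 248, 369 and 239 CPM in the FGF2 libraries, against 3.79, 3.30 and 3.79 CPM in the unstimulated libraries. Its antagonist Grem1 had 1083, 1146 and 1064 CPM in the FGF2 libraries, against 85.4, 77.4 and 83.7 CPM in the unstimulated libraries. In both the groups were far apart, with log2 fold changes of 6.30 ± 0.27 and 3.74 ± 0.09, and Bmp4 fell by 4.56. The EGF receptor ligands Hbegf, Ereg, Tgfa and Areg all rose, Hbegf to 214 CPM against 38.5 CPM, and their receptor Egfr fell by 1.58. Vegfa, the main angiogenic factor, rose by 0.94 and Angpt2 by 3.71, while Angpt1 and the receptor Tek that both bind fell by 2.15 and 3.14. Igf1 had 0.933, 0.793 and 0.636 CPM in the FGF2 libraries, against 20.6, 18.7 and 20.6 CPM in the unstimulated libraries, with no overlap, and fell by 4.67. The neurotrophin Bdnf rose by 2.20.

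Growth factor and cytokine receptors leaned the other way, with 11 of 22 lower and 5 higher. Il6st, the signalling chain shared by receptors of the interleukin 6 family, had 235, 247 and 242 CPM in the FGF2 libraries, against 2015, 1912 and 1858 CPM in the unstimulated libraries, with no overlap (log2 fold change -2.998 ± 0.09). Osmr, Lifr and Il1r1 fell by 2.04, 1.47 and 1.89, and Pdgfrb by 1.47, while Pdgfra rose by 0.32. Ligands of the interleukin 6 family rose in part: Clcf1, Il11 and Lif by 1.40, 1.56 and 1.19, whereas Il6 fell by 3.73, to 0.327 CPM against 4.34 CPM, or by 4.49 without FGF2 replicate 1. In the Wnt pathway 10 of 29 genes rose and 16 fell. The inhibitor Dkk2 rose by 2.85 and Dkk1 was at least 15.7-fold higher, since it had 0 counts in the unstimulated libraries. The inhibitors Sfrp1, Sfrp2 and Dkk3 fell by 3.96, 2.78 and 2.74, and the R-spondins Rspo2 and Rspo3, which enhance Wnt signals, by 4.88 and 3.61. The Wnt target Axin2 rose by 0.65, a call that was lost without FGF2 replicate 2 (adjusted p = 0.12) and without unstimulated replicate 2 (0.0525). The Wnt effector Lef1 rose by 2.25, and Lgr5, a receptor of R-spondins, fell by 6.70, or by 7.57 without FGF2 replicate 3. Of 12 Notch pathway genes 2 rose (1 without FGF2 replicate 2) and 7 fell, among them the targets Hey1 and Heyl at -4.03 and -3.90. The third Hey gene, Hey2, had 0.0667, 0 and 0.182 CPM in the FGF2 libraries, against 1.33, 1.13 and 0.799 CPM in the unstimulated libraries, with no overlap, and fell by 3.61, or by 4.88 without FGF2 replicate 3.

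Guidance molecules and genes better known from neurons moved in both directions. Nptx1, a pentraxin of synapses, had 206, 276 and 194 CPM in the FGF2 libraries, against 0.473, 0.213 and 0.243 CPM in the unstimulated libraries, and Sema7a, a membrane-anchored semaphorin that binds integrin beta 1, had 732, 980.1 and 748 CPM in the FGF2 libraries, against 17.2, 19.3 and 16.4 CPM in the unstimulated libraries. No libraries overlapped and the log2 fold changes were 9.46 ± 0.24 and 5.54 ± 0.16. Sema3a and the netrin Ntn1 rose by 2.73 and 1.18, while Slit3, Ephb2 and Epha4 fell by 2.46, 2.18 and 2.97. Of 31 genes in this list 13 rose and 11 fell, with 6 at least 2-fold higher and 7 at least 2-fold lower. The potassium channel gene Kcnh2, among the 10 genes of smallest p, had 84.3, 98.8 and 78.9 CPM in the FGF2 libraries, against 2.90, 3.19 and 2.22 CPM in the unstimulated libraries.

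Inflammatory mediators did not move as a block. Of 14 cytokine and colony stimulating factor genes 9 rose and 4 fell, and of 18 chemokine and chemokine receptor genes 5 rose and 9 fell. Tslp, an epithelial and stromal cytokine that acts on dendritic cells, had 45.3, 123 and 38.2 CPM in the FGF2 libraries, against 0.221, 0.283 and 0.139 CPM in the unstimulated libraries, and the alarmin Il33 had 20.3, 102 and 17.4 CPM in the FGF2 libraries, against 1.96, 1.49 and 1.70 CPM in the unstimulated libraries. In both genes replicate 2 was well above the other FGF2 libraries, though all 3 exceeded the unstimulated ones (log2 fold changes 8.30 ± 0.58 and 4.75 ± 0.66). Without replicate 2 the log2 fold changes were 7.58 for Tslp and 3.45 for Il33. Csf1, which sustains macrophages, rose by 0.54, to 1812 CPM with FGF2 against 1250.5 CPM without. The monocyte attractant Ccl2 had 254, 432 and 245 CPM in the FGF2 libraries, against 58.01, 54.00 and 59.7 CPM in the unstimulated libraries, and Ccl7, Ccl8, Ccl11 and Cx3cl1 also rose. Among attractants of neutrophils, Cxcl5 stood at 1.02 ± 0.536 CPM with FGF2 and 155 ± 9.09 CPM without, and Cxcl1 fell by 2.33. Cxcl3 fell by 3.99, or by 5.47 without FGF2 replicate 3, the highest of the FGF2 libraries. Cxcl12, which retains leukocytes and stem cells, had 38.7, 30.8 and 43.9 CPM in the FGF2 libraries, against 319, 305 and 291 CPM in the unstimulated libraries, and its scavenger receptor Ackr3 fell by 2.13. The interleukin receptor antagonist Il1rn fell by 4.83, and the osteoclast factor Tnfsf11 (RANKL) by 2.19.

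Genes under NF-kappaB and acute-phase control were mostly lower, 10 of 16 against 1 higher. Ptx3, a long pentraxin that opsonises microbes, had 1.57, 0.793 and 1.09 CPM in the FGF2 libraries, against 578, 577 and 669 CPM in the unstimulated libraries. The groups lay far apart, and the log2 fold change was -9.04 ± 0.44. Lcn2, a siderophore-binding protein, had 0.233, 0.430 and 0.0303 CPM in the FGF2 libraries, against 1.93, 2.55 and 2.71 CPM in the unstimulated libraries, with no overlap, and fell by 3.38, or by 4.19 without FGF2 replicate 2. Bcl3, Hp and Icam1 fell by 3.79, 3.33 and 1.96, and the member that rose was Cp, ceruloplasmin, at 0.67 ± 0.20, a call that was lost without FGF2 replicate 2 (adjusted p = 0.135). Of 13 complement genes 8 fell and 3 rose: C3 had 1.80, 3.73 and 1.27 CPM in the FGF2 libraries, against 33.99, 40.43 and 34.1 CPM in the unstimulated libraries, C4b fell by 4.56, or by 5.20 without FGF2 replicate 2, and C1ra fell by 3.34. Interferon response and antigen presentation genes numbered 17 lower and 2 higher of 24, with a median of -0.81. Psmb8, an immunoproteasome subunit, fell by 2.53, or by 3.14 without FGF2 replicate 2. The immunoproteasome gene Psmb9 fell by 1.96, and Ifit2 and B2m rose by 0.55 and 0.28. The core of the interferon-stimulated response element (ISRE), read on both strands, was present in the promoters of 10 of the 21 interferon genes matched to RefSeq, against 3.61% of the tested genes. It was present in 5.42% of matched genes that fell at least 2-fold and 3.77% of those that rose. The list was chosen as interferon response genes, so its share is not independent of that choice, and none of these shares was tested. In 8 promoters of the whole table the ISRE core overlaps an AP-1 motif or the motif TGATGNAAN used below. Prostaglandin genes numbered 6 higher and 3 lower of 12: the cyclooxygenase Ptgs1 rose by 2.68 and the synthase Ptges to 263 CPM against 35.6 CPM, and Hpgd, which inactivates prostaglandins, fell by 4.32. The inducible cyclooxygenase Ptgs2 rose by 0.63, a call that was lost without FGF2 replicate 1 (adjusted p = 0.0508) or 3 (0.0635).

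**Figure D3:**
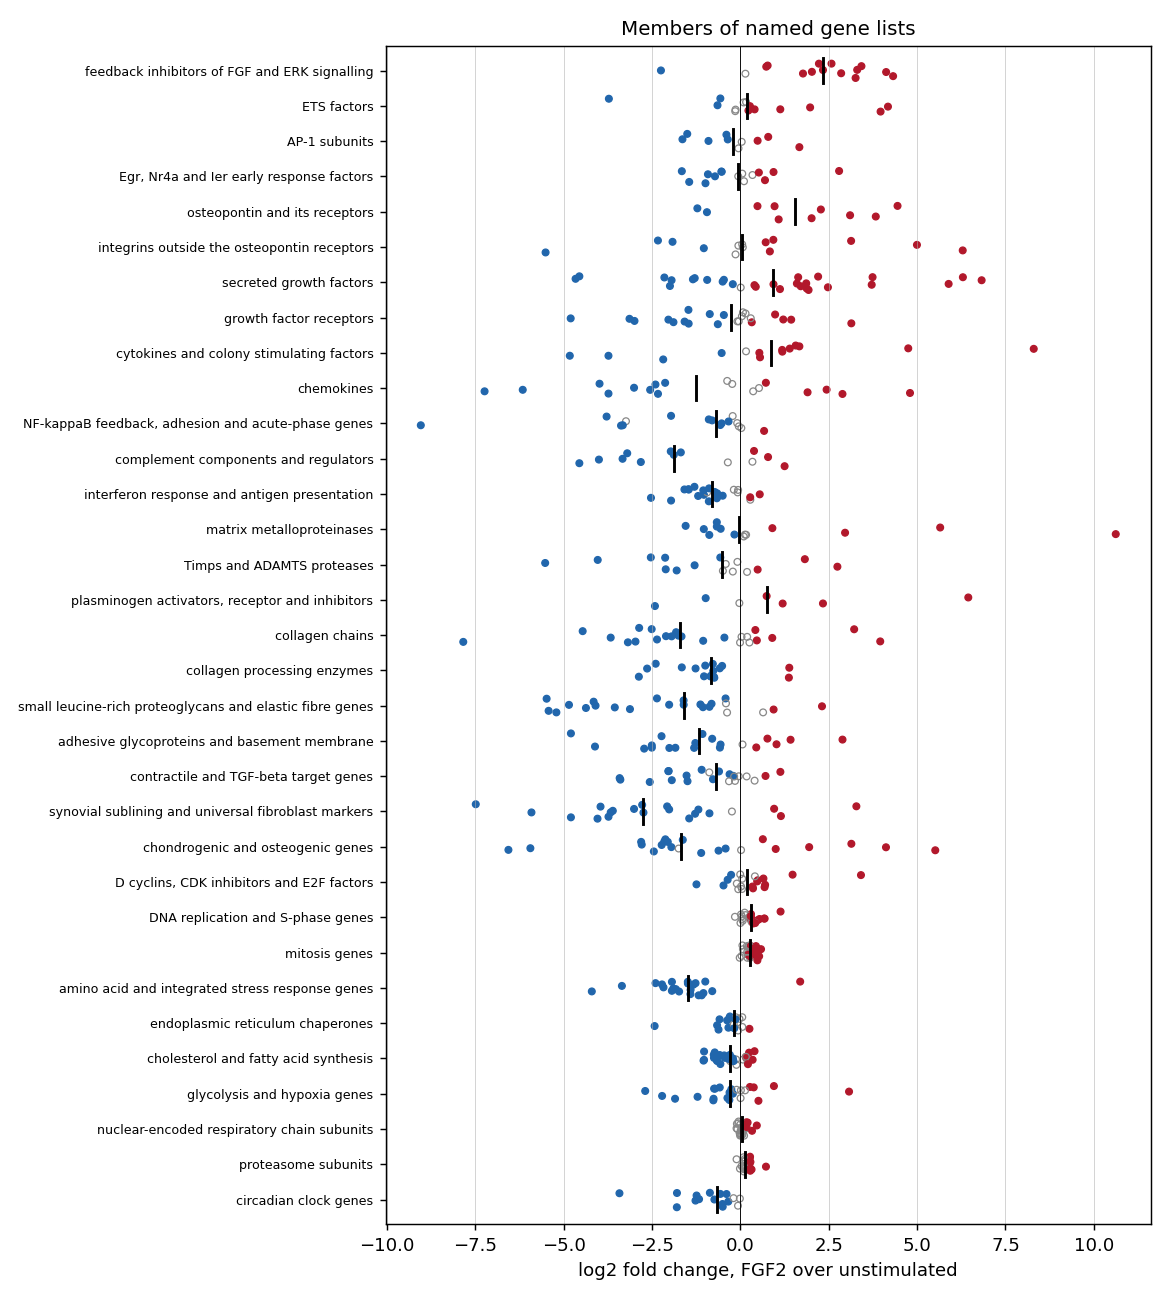
Log2 fold change of FGF2 over unstimulated cells for the tested members of 33 gene lists, with 1 point a gene. Filled red points rose, filled blue points fell, open points were not called, and the black bar is the list's median, which is 2.34 for the feedback inhibitors at the top and -1.71 for the collagen chains.

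The cell cycle genes of a mitogen response were partly higher. Ccnd1, the D cyclin that growth factors induce through ERK, had 1451, 1489.8 and 1462 CPM in the FGF2 libraries, against 137, 138 and 139 CPM in the unstimulated libraries (log2 fold change 3.41 ± 0.14), while Ccnd3 fell by 0.36 and Ccnd2 by 0.26, the call of Ccnd2 being lost without FGF2 replicate 2 (adjusted p = 0.0572). Of 24 DNA replication and S-phase genes 12 rose and none fell, with a median log2 fold change of 0.29, and of 24 mitosis genes 13 rose and none fell, with a median of 0.28. The rises were small, as for Cdt1 at 1.14 ± 0.10 and Pcna at 0.54 ± 0.07. Cyclin B1, Ccnb1, had 72.9, 54.7 and 78.5 CPM in the FGF2 libraries, against 51.5, 53.6 and 55.3 CPM in the unstimulated libraries (log2 fold change 0.36 ± 0.14, adjusted p = 0.0303). The groups overlapped through FGF2 replicate 2, and the call was lost on leaving out any 1 of the 6 libraries except FGF2 replicate 2 (adjusted p = 0.0522 to 0.148). Mki67 had 118, 90.4 and 119 CPM in the FGF2 libraries, against 102, 104 and 106 CPM in the unstimulated libraries, so the groups overlapped and replicate 2 was the lowest of all 6 (adjusted p = 0.527). Without FGF2 replicate 2 its log2 fold change was 0.19 (adjusted p = 0.0417) and the count of mitosis genes that rose was 21 of 24. The CDK inhibitor genes Cdkn2a, Cdkn2b and Cdkn1a rose as well, by 1.48, 0.68 and 0.48, and of 15 p53 target and senescence genes 4 rose, Mdm2 by 1.48, and 6 fell, Fas by 3.18.

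The amino acid and integrated stress response, the programme run by the transcription factor ATF4, was lower throughout. Of 22 genes 21 fell and 1 rose, with a median log2 fold change of -1.49. Trib3, a pseudokinase induced by ATF4, had 7.43, 6.78 and 6.54 CPM in the FGF2 libraries, against 122, 126 and 135 CPM in the unstimulated libraries, and Asns, asparagine synthetase, had 68.4, 48.4 and 70.4 CPM in the FGF2 libraries, against 243, 232 and 243 CPM in the unstimulated libraries. The groups were separate in both and the log2 fold changes were -4.21 ± 0.19 and -1.94 ± 0.11. Chac1, a glutathione-degrading enzyme, fell by 3.35, the stress factor Ddit3 by 2.40, the transporters Slc7a5 and Slc7a11 by 1.83 and 1.49, and Atf4 itself by 1.33. Phgdh, which starts serine synthesis, was the member that rose. It had 862, 703 and 937 CPM in the FGF2 libraries, against 239, 269 and 267 CPM in the unstimulated libraries (log2 fold change 1.69 ± 0.12), while Psat1 and Psph, the next enzymes of that route, fell by 0.99 and 1.42. Herpud1, an ER stress gene that was among the 10 genes of smallest p, fell by 2.43, and of 18 ER chaperone genes 10 fell and 1 rose (none without FGF2 replicate 2).

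Promoters of 3 of the genes that fell are shown with the CARE motif, the composite element to which ATF4 and C/EBP proteins bind, written here as TGATGNAAN and read on both strands, in capitals. The motif was present in 7 of the 21 stress response genes matched to RefSeq, namely Asns, Chac1, Nupr1, Pck2, Slc7a11, Trib3 and Vldlr. That compares with 2.80% of the tested genes and 4.50% of all genes in the table. Among matched genes that fell at least 2-fold 4.70% held it, and among those that rose at least 2-fold 3.17%. The list was chosen from genes of the ATF4 programme, so its share is not independent of that choice. A match of letters does not show binding, and none of these shares was tested. The sequences run 5′ to 3′ along the gene, at chr2:152344011-152344310 on the minus strand (Trib3), chr2:119350992-119351291 on the plus strand (Chac1) and chr6:7693160-7693459 on the minus strand (Asns), all GRCm38.p6 from RefSeq. The motif begins 194 bases before the start site in Chac1, 23 bases before it in Asns and just after it in Trib3. No promoter of the table had this motif overlapping an AP-1 motif.

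Trib3: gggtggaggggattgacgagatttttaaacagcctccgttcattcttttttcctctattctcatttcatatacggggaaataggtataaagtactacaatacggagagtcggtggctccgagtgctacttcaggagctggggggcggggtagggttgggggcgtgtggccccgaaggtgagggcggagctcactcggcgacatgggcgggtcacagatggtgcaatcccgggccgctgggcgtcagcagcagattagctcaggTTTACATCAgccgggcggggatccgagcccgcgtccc
Chac1: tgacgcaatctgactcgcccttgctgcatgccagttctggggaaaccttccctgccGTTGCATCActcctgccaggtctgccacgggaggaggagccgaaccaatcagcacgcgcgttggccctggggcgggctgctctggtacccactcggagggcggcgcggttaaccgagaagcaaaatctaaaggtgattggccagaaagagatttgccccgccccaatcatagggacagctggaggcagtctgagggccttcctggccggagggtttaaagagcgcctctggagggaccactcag
Asns: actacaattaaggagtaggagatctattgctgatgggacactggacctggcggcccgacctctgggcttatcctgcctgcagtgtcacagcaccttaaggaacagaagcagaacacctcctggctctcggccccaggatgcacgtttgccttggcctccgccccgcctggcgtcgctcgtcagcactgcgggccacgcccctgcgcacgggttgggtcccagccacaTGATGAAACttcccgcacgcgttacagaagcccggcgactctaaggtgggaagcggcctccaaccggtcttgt

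Lipid synthesis and glycolysis genes fell more often than they rose. Of 29 cholesterol and fatty acid synthesis genes 17 fell and 5 rose, led downward by Hmgcs1, Cyp51 and Scd2 at -1.04, -1.03 and -1.03. Of 23 glycolysis and hypoxia genes 14 fell and 5 rose: Pfkfb3, Ndrg1 and Car9 fell by 2.69, 2.22 and 1.85, while the glucose transporter Slc2a1 rose by 0.95. Of 16 clock genes 13 fell and none rose, with Npas2, Per2 and Ciart at -3.42, -1.80 and -1.80. The labels give no time of day at which the cells were taken. The lysosome list held 15 genes that rose and 4 that fell of 26, with the cathepsins Ctsb and Ctsl at 0.96 ± 0.11 and 0.87 ± 0.14. Of 23 proteasome genes 9 rose and none fell, all by less than 2-fold, and with library totals alone as the scaling the rises numbered 16. Ribosomal protein genes showed 8 falls and no rise among 27, but 1 fall with library totals alone, and respiratory chain genes 5 rises among 26, but 11 with library totals alone. Of 24 ribosome biogenesis genes 4 rose and 1 fell, and without FGF2 replicate 2 the rises numbered 11. Of the 13 mitochondrially encoded genes none was called in the reported fit, which does not pair replicates by number. Their log2 fold changes ran from 0.0037 to 0.94 with a median of 0.28, so the lack of a call does not show that they were unchanged.

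Markers of fibroblast position shifted. Of 21 sublining and universal fibroblast markers 17 fell and 3 rose, with a median log2 fold change of -2.74. Of 9 lining markers 5 rose and 2 fell, with a median of 0.38. The summed level was lower with FGF2 for both lists. It was 2417 to 2471 CPM with FGF2 and 6351 to 6787 CPM without for the sublining list, and 1358 to 1723 CPM and 2392 to 2664 CPM for the lining list. Among the lower sublining genes were Abi3bp, Sfrp1 and Ly6c1, and Thy1, the best known of them, averaged 253 ± 11.96 CPM with FGF2 and 578 ± 35.1 CPM without. Cd34 rose, with 224, 319 and 227 CPM in the FGF2 libraries, against 27.8, 26.9 and 24.5 CPM in the unstimulated libraries. Of the lining genes Clic5 rose by 5.92 and Prg4, lubricin, fell to 1075 CPM against 2350.3 CPM. Of 15 pan-fibroblast genes 6 rose and 5 fell: Pdpn and Vim rose by 2.19 and 0.79, and Pdgfra stood at 396 CPM with FGF2 and 317 CPM without. Chondrogenic and osteogenic genes numbered 14 lower and 6 higher of 22. Alpl, alkaline phosphatase of osteoblasts, had 0.133, 0.793 and 0.212 CPM in the FGF2 libraries, against 25.2, 23.2 and 21.7 CPM in the unstimulated libraries, with all FGF2 libraries lower (log2 fold change -5.94 ± 0.50, and -7.03 without FGF2 replicate 2). Ibsp, a bone sialoprotein, had 0, 0.132 and 0.0303 CPM in the FGF2 libraries, against 5.11, 5.60 and 5.63 CPM in the unstimulated libraries, with no overlap, and fell by 6.57, or by 8.11 without FGF2 replicate 2. Col2a1 fell by 2.06, while Dmp1 and Phex, genes of osteocytes, and Sox9 rose by 5.51, 4.12 and 0.998.

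The largest changes by rank fell on genes of mixed function. The 15 largest rises, among genes with a mean of at least 5 CPM, were Mmp10, Nwd2, Gpr149, Nptx1, Tmem163, Cd300lb, Tslp, Prkcb, Dach1, Adcy8, Sele, Gm49774, Esm1, Akr1c18 and Prss22. Nwd2 had 1307 counts over the FGF2 libraries and 1 over the unstimulated libraries, a ratio of 1313 with a counting interval of 235 to 51901. Tmem163 had 1375 counts with FGF2 and 3 without, a ratio of 460 with an interval of 157 to 2235. Esm1, an endothelial proteoglycan that VEGF induces, and Sele, the selectin of activated endothelium, rose to 26.03 and 15.2 CPM against 0.225 and 0.103 CPM. The 15 largest falls were Megf6, Ptx3, Atp12a, Shisal1, Cdsn, Col8a2, Abi3bp, Cxcl5, Car6, Arsi, Lgr5, Fndc1, Tenm4, Scara5 and Ccn5. Ccn5, a matricellular protein, had 20.2, 26.4 and 18.8 CPM in the FGF2 libraries, against 1345, 1432 and 1460.3 CPM in the unstimulated libraries, and its relative Ccn4 fell by 2.60. Atp12a had 2 counts over the FGF2 libraries and 1111 over the unstimulated ones, lower by a ratio of 553 with an interval of 153 to 4572.

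A set of genes was near the limit of detection in 1 group only. At most 3 counts in every unstimulated library and at least 1 CPM in every FGF2 library were found for 33 genes, and the reverse for 24. Among the 33, Rasgrf1, an exchange factor of Ras, had 0 counts in the unstimulated libraries and was at least 199-fold higher with FGF2. The sialyltransferase St8sia1 and the scavenger receptor Olr1 were at least 66-fold and 37.2-fold higher on the same floor of 3 counts over the group. The keratin Krt18 also met this rule, as did Cd28 and Tigit, a costimulatory and an inhibitory receptor of T cells, Tigit at 2.23 CPM with FGF2. Among the 24, Ostn, osteocrin, had 0 counts with FGF2 and was at least 125-fold lower, and Clec3b, Ccl20 and Cd74 met the same rule.

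Markers of other cell types were read for each group. Of 12 macrophage markers 5 passed the filter, with a summed level of 53.7 to 56.5 CPM with FGF2 and 14.2 to 15.4 CPM without. In the FGF2 libraries most of it was Cd14, which had 42.96, 47.2 and 41.2 CPM in the FGF2 libraries, against 5.68, 6.70 and 5.70 CPM in the unstimulated libraries. The defining genes Ptprc, Adgre1, C1qa, C1qb, Itgam, Cx3cr1 and Fcgr1 had at most 4 counts in any of the 6 libraries. Of 9 endothelial markers 6 passed, summing to 14.96 to 15.5 CPM and 15.4 to 17.6 CPM, with Cldn5 and Tie1 at 0 counts throughout. Within that list Kdr and Cdh5 rose by 3.14 and 2.25, and Tek and Erg fell. Pecam1 had 0.467, 0.165 and 0.212 CPM in the FGF2 libraries, against 0.0316, 0.142 and 0.104 CPM in the unstimulated libraries, and its log2 fold change of 1.59 ± 0.64 (adjusted p = 0.0387) was not called without FGF2 replicate 1 (0.24), unstimulated replicate 1 (0.164) or 3 (0.0675), or with the replicate block (0.051). All 8 pericyte and smooth muscle markers passed, at 261 to 365 CPM with FGF2 and 314 to 331 CPM without, of which Cspg4 made up most. Rgs5 rose, with 26.4, 69.8 and 27.1 CPM in the FGF2 libraries, against 2.21, 1.38 and 3.09 CPM in the unstimulated libraries, a log2 fold change of 4.20 ± 0.40 and of 3.58 without FGF2 replicate 2, and 6 others of this list fell. All 7 Schwann cell markers passed, at 69.5 to 78.9 CPM and 133 to 143 CPM, of which Ncam1 made up most. Of 8 chondrocyte and osteoclast markers 5 passed, at 296 to 364 CPM and 382 to 397 CPM. Of 8 neutrophil and lymphocyte markers 2 passed, at 1.48 to 2.74 CPM and 0.248 to 0.452 CPM, while S100a8 had at most 4 counts and S100a9 none. None of the muscle, keratinocyte and erythroid markers other than Acta1, Des and Krt10 had more than 10 counts in any of the 6 libraries. Acta1 was not called, but rose by 0.62 without FGF2 replicate 2 (adjusted p = 0.00689). Krt10 had 3.63, 2.88 and 2.91 CPM in the FGF2 libraries, against 2.27, 2.09 and 2.33 CPM in the unstimulated libraries and rose by 0.49, a call lost without FGF2 replicate 1 (adjusted p = 0.138) or unstimulated replicate 1 or 2 (0.0573 and 0.0858). The part of these markers in the other results was not tested.

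The same factor was also given to naive cells that received OPN, in libraries that so far entered only the shared fit. FGF2 plus OPN over OPN alone called 8522 genes (56.5%), 4079 higher (27.1%) and 4443 lower (29.5%). With library totals alone this split was 5433 higher and 3060 lower, and the median log2 fold change over all genes was 0.118, against -0.0111 with TMM scaling. Of the 1422 genes that FGF2 raised at least 2-fold without OPN, 838 rose, 67 fell and 517 were not called with OPN present, and their median log2 fold change was 0.693 against 1.87. Of the 1578 that it lowered at least 2-fold, 823 fell, 232 rose and 523 were not called, with medians of -0.539 and -1.90. The genes in both sets were chosen for their effect without OPN, so these counts and medians are a description and were not tested. Over all 15072 genes the log2 fold changes of both comparisons, which share no library, were related with Pearson's r of 0.473 and Spearman's rho of 0.344. This is across genes, which are not independent replicates. The test of the difference between both effects called 7723 genes (51.2%).

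Individual genes show the range. Spry4 had 9.97, 7.55 and 8.97 CPM with FGF2 plus OPN, against 6.55, 7.31 and 5.02 CPM with OPN alone, so the groups stayed apart but by far less than without OPN. The 2 log2 fold changes, 0.48 ± 0.15 with OPN and 4.32 ± 0.15 without, differed (interaction adjusted p = 4.21e-12). Sema7a, Itgb3 and Ccnd1 differed in the same direction, with changes of 1.31, 1.37 and -0.26 when OPN was present. For other genes no difference was called: Errfi1 changed by 3.21 ± 0.09 with OPN and 3.42 ± 0.09 without (difference -0.21 ± 0.12, adjusted p = 0.137), Mmp3 by 4.71 ± 0.34 and 5.65 ± 0.34 (difference -0.95 ± 0.44, adjusted p = 0.0897), and Eln by -4.13 ± 0.26 and -4.85 ± 0.37 (difference 0.73 ± 0.52, adjusted p = 0.268).

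The gene lists behaved differently with OPN present. Most stress response genes were lower in both settings, and with OPN present 20 of 22 fell and 1 rose. The size of the effect still differed for many of them. The difference was called higher in 9 and lower in 6 with OPN, against 51.2% called in either direction among all genes. For Asns no difference was called, with changes of -1.92 ± 0.11 with OPN and -1.94 ± 0.11 without (difference 0.02 ± 0.16, adjusted p = 0.932). Of the 15 feedback inhibitors 10 rose with OPN present and 1 fell, with a median of 0.69 against 2.34 without OPN, and the difference was called in 14 of them, 13 lower and 1 higher with OPN. Of 24 collagen chains 13 fell and 4 rose, with a median of -0.30 against -1.71, and the difference was called higher in 16 and lower in 5. Among all genes at least 2-fold higher without OPN, the difference was called lower in 66.6%. Among all genes at least 2-fold lower without OPN, it was called higher in 70.8%. Smaller effects with OPN were thus not particular to these lists. The proliferation lists turned: with OPN present none of the S-phase or mitosis genes rose and 22 of 24 fell in each, with medians of -0.79 and -0.66, and 22 of 24 ribosome biogenesis genes fell. Of the 16 NF-kappaB and acute-phase genes 12 rose and 3 fell with OPN present, with a median of 0.65 against -0.69 without OPN, and of 10 AP-1 subunits 8 rose and 1 fell. Fos had 358, 409.8 and 425 CPM with FGF2 plus OPN against 25.9, 23.5 and 22.5 CPM with OPN alone, the reverse of its fall without OPN (log2 fold changes 4.05 ± 0.10 and -1.51 ± 0.09, interaction adjusted p = 1.35e-17). Its level with OPN alone was far below that in unstimulated cells, given above, so the effects start from different levels.

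**Figure D4:**
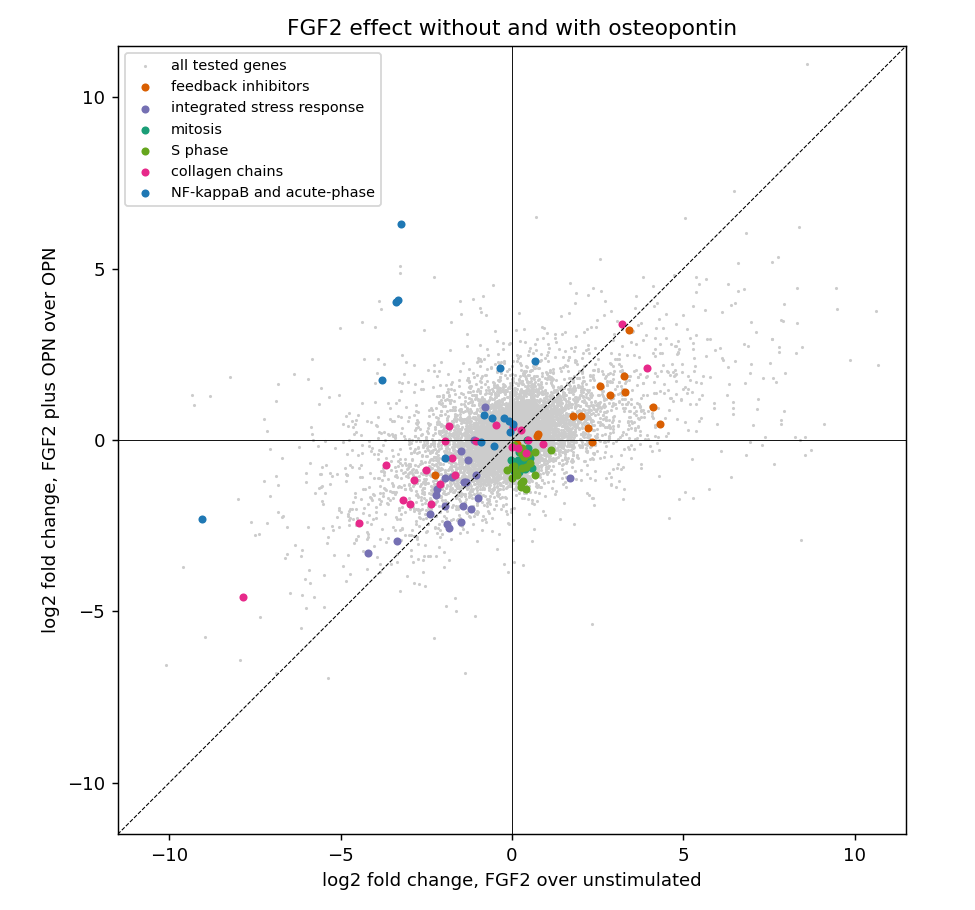
Log2 fold change of FGF2 plus OPN over OPN (vertical axis) against that of FGF2 over unstimulated cells (horizontal axis) for 15072 genes in grey, with 6 gene lists in colour and the dashed line of equal change. Stress response genes (purple) lie below 0 on both axes apart from Phgdh and Cebpb, while mitosis and S-phase genes (green) lie at or above 0 on the horizontal axis and below 0 on the vertical axis for the most part.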

How the data were processed

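Total RNA (RNeasy) of cultured fibroblasts was sequenced in paired-end reads on a NovaSeq X Plus, per the labels' protocols. The authors deposited raw read counts per gene, made with STAR and featureCounts on GRCm38 (mm10) per the submitters' processing notes. No source used here gives the versions, the annotation release or the strand setting, so reads of overlapping genes may be shared. From these counts, edgeR 4.0.16 (R 4.3.3) was run with its default expression filter, TMM factors, 1 mean per group over 18 libraries and the robust quasi-likelihood test, and p-values were adjusted by Benjamini-Hochberg over 15072 genes. TPM used the deposited gene lengths. Named by rule were the 15 largest rises and 15 largest falls among called genes with no overlap and a mean of at least 5 CPM, the 10 smallest p-values, the 10 highest TPM per group, and genes with at most 3 counts in every library of 1 group and at least 1 CPM in every library of the other. Other named genes are members of 60 lists, those with the largest changes or a defining role, or relatives of a named gene, and these examples were chosen after their values were seen. Members and lists were chosen with earlier results of these data known. Bounds take 3 counts over a group as the floor and, like the intervals, cover counting error only. Replicates of a group differed beyond sampling noise (chi-square per degree of freedom 4.42 to 40.7). The tests were checked on simulated data in which few genes changed, equally often in both directions. Most genes changed here, so that check cannot speak to the scaling or to the split of directions. Alternatives used DESeq2 1.42.0, limma 3.58.1, other scalings and filters, fewer libraries and a replicate block.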

Additional observations from a re-analysis of the deposited data

Results flagged for a closer look

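The effect of FGF2 with OPN present differed from its effect without OPN in 7723 genes by the test of the difference itself (interaction in edgeR, Benjamini-Hochberg adjusted over 15072 genes). Over all 15072 genes such differences with both effects called in opposite directions were balanced. FGF2 lowered 783 genes without OPN and raised them with it, and for 774 genes the reverse held. The values here are differences of log2 fold changes, the FGF2 effect with OPN minus that without, for the named genes among these. A positive value marks a gene that FGF2 lowered without OPN and raised over OPN alone. Each effect is read from its own baseline, unstimulated cells or OPN alone, and these baselines can differ. As examples, Shisal1 averaged 11.4 CPM in unstimulated cells, 1.90 CPM with OPN alone and 4.66 CPM with FGF2 plus OPN. Serpina3g averaged 4.37, 1.62 and 5.81 CPM in the same order. The named genes do not represent the balance over all genes. Transcription factors with such opposite effects were Fos, Fosb, Fosl2, Egr1, Cebpb and Bcl3, with differences of 5.56, 4.66, 1.98, 3.38, 1.78 and 5.53 in that order. Cytokines, chemokines and their receptors with such opposite effects were Il6, Il1rn, Il1r1, Osmr, Cxcl1, Cxcl12, Ackr3, Tnfsf11 and Csf1, with differences of 5.95, 5.52, 3.08, 2.27, 3.2, 3.69, 3.23, 4.04 and -1.0 in that order. Complement, acute-phase and interferon genes with such opposite effects were C3, Hp, Ifit2, B2m and Ly6c1, with differences of 7.31, 7.43, -0.838, -0.45 and 2.82 in that order. Growth factors and their receptors with such opposite effects were Hbegf, Igf1, Angpt1, Egfr and Kdr, with differences of -2.8, 5.21, 2.7, 1.89 and -4.34 in that order. Matrix, protease and integrin genes with such opposite effects were Mmp2, Mmp17, Plaur, Tnc, Has2, Itgav and Itgb1, with differences of 1.01, 1.49, -2.87, -1.51, 1.36, -1.66 and -0.799 in that order. Cell cycle and metabolic genes with such opposite effects were Ccnb1, Cdt1, Pcna, Ccnd3, Cdkn2b, Mdm2, Phgdh, Pfkfb3, Car9 and Eef2, with differences of -0.946, -1.41, -1.2, 0.522, -1.04, -1.71, -2.79, 3.03, 3.25 and 0.594 in that order. Genes near the limit of detection in 1 of the groups were Cxcl3, Gdpd2, Gm13293, Gm49257, Lcn2, Ndst4, Serpina3g and Shisal1, with fitted differences of 5.09, 7.09, 10.3, 10.7, 7.41, -11.3, 10.1 and 10.1, which depend on the prior count and are no bounds.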

How the results depend on the processing

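The count of 8609 called genes lay between 7895 and 8768 under DESeq2, limma-voom, library totals alone, upper-quartile factors, TMM without Spp1, no filter, a filter of 1 CPM in 3 libraries, and fits restricted to 6 or 12 libraries. Leaving out each FGF2 or unstimulated library gave 7956 to 8373. The balance of directions tipped either way with the scaling: library totals alone gave 5233 higher and 3535 lower calls, and upper-quartile factors 3920 higher and 4704 lower. With the replicate number as a block 8509 genes were called, of which 8457 were among the 8609, and 7722 with the block in the 6 libraries alone. Same-numbered FGF2 and unstimulated libraries correlated at -0.0027 to 0.0203 in their deviations. That value is over all genes and cannot show whether a smaller set of genes shares a batch. The mitochondrial share of counts in replicates 1, 2 and 3 was 0.708, 0.758 and 0.477% with FGF2. It was 0.666, 0.562 and 0.374% without FGF2, so replicate 3 was the lowest in both groups. Whether the replicate numbers mark a shared batch was not tested. Over 18 libraries the block lost the call of Pecam1 among the named genes. Mmp14, Ccnb1, Ccnd2, Axin2, Krt10, Mmp13, Ptgs2, Cp and Pecam1 lost their calls without 1 library, as given above, and so did Eef2 without FGF2 replicate 1 (adjusted p = 0.0581). Without unstimulated replicate 2 the adjusted p of Mmp14 was 0.1. Other settings ended calls of Mmp14 (library totals, no filter, the 6-library and the 12-library fits), Ccnd2 (library totals), Ccnb1 (upper-quartile factors, 12 libraries), Pecam1 (no filter), Mmp13 (12 libraries), Cp, Ptgs2 and Ntn1 (6 libraries, adjusted p = 0.0545 to 0.0914), and, with the block in 6 libraries, Axin2, Ccl7, Cp, Krt10 and Ptgs2 (0.0558 to 0.0872). Dcn, Lum and Tagln were called with no filter and not in the reported fit. With library totals alone the higher calls were 16 for the proteasome list, 11 for the respiratory chain list and 8 for growth factor receptors. In all, higher or lower counts of lists shifted by a large fraction, or to or from none, in 9 cases with library totals alone. They did so in 5 cases with upper-quartile factors and in 12 without FGF2 replicate 2. In that order 109, 113 and 106 counts stayed close. The cause of these shifts was not tested. Depth limits genes below about 0.1 CPM per library, and 3 libraries a group limit the precision of every SE.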
